A study of Mus musculus with 9 samples.

Results

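The keratin-associated protein genes of the mouse tongue are described here, taken as every gene symbol of the deposited expression table that begins with Krtap and a digit. The rule found 52 genes in 25 numbered subfamilies, out of 20512 gene symbols. RNA of the whole tongue was sequenced in 9 libraries from mice about 6 weeks old, bred from C57/Bl6 crossed with FVB/NJ. In 5 control libraries the genotype was K14-rtTA ONLY, in which the promoter of keratin 14, a keratin of basal epithelial cells, drives a transcription activator that needs doxycycline. In 4 transgene libraries the genotype was K14-rtTA; TREFLBmi-1, which adds a Bmi1 transgene under that activator. Doxycycline at 2 mg/mL was given in the drinking water to both groups for 1 week, so the controls carry the activator and the drug as well. Bmi1 is a subunit of the Polycomb repressive complex PRC1. Each library has its own number in the labels, which do not say that each came from its own mouse, so p-values measure the spread between libraries, which may be technical.

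Keratin-associated proteins form the matrix in which hard keratin filaments are embedded in hair, wool and nail, and they are cross-linked to the filaments through disulfide bonds of their many cysteines. The family is divided by composition into high sulfur, ultra-high sulfur and high glycine-tyrosine proteins. Hard keratins are also made in the filiform papillae, the horny spines on the back of the tongue. The genes are short and lie in clusters of close relatives, one of them inside the type I keratin locus.

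Values are the authors' deposited log2 normalized expression, so that 1 unit is a factor of 2; how deeply each library was sequenced is unknown. Oral epithelium and muscle were both plainly present: the oral keratin gene Krt13 lay between 18.51 and 18.91 in controls and between 18.35 and 18.79 in transgene libraries, and the fast muscle myosin gene Myh4 lay between 18.27 and 18.49 and between 18.53 and 18.70. Bmi1 stood at 10.74, 10.21, 10.24, 10.45 and 10.34 in control replicates 1 to 5 and at 12.49, 12.05, 14.87 and 11.94 in transgene replicates 1 to 4. All transgene libraries thus lay above all controls for the induced gene. For every gene, the deviations of the libraries from their group means add up to 0 within each of 3 sets of libraries, called strata here, which no label explains. Replicate 1 of each group makes up stratum 1. Control replicates 4 and 5 make up stratum 3, and the other 5 libraries are stratum 2. The 14490 genes whose mean over the libraries reached a floor of 3 were tested together with limma, a linear model with terms for group and stratum, and called at a Benjamini-Hochberg adjusted p under 0.05. Bmi1 itself, with a difference of 2.44 (SE 0.6) and a transgene SD of 1.37, was not called in that fit (limma adjusted p 0.0672).

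A minority of the genes taken by the naming rule was found at a testable level. Genes outside the rule that share sequence with members are described at the end. Of the 52 members, 20 reached the floor of 3, 17 lay below it, and 15 stood at exactly 0 in every library. An exact 0 in this table can be a failed estimate, so those 15 are only listed at 0. The floor fell in a wide gap: the lowest tested member was Krtap27-1, with a mean of 5.43, and the highest member below the floor was Krtap6-2, with a mean of 2.58. No tested member had a value under 5.07 in any library, so none reached the floor through 1 group only.

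The tested members came from 8 subfamilies and the other 17 subfamilies had none. Subfamilies 1, 2, 3, 13, 26 and 27 were tested whole, with 3, 1, 3, 2, 1 and 1 members. In subfamily 4, 7 of 8 members were tested, and Krtap4-13 was the exception with a mean of 0.29. In subfamily 9, Krtap9-1 and Krtap9-3 were tested while Krtap9-5 stood at 0. All 5 members of subfamily 5, all 3 of subfamily 6 and all 5 of subfamily 19 were below the floor or at 0. In human hair, the KRTAP5, KRTAP10 and KRTAP12 genes are known from the cuticle, and in these tongues the mouse members with those numbers were all below the floor or at 0.

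The tested members were neighbours on the chromosome. In the order of the genes in the GENCODE M21 annotation of GRCm38, 16 of the first 17 members on chromosome 11 were tested, from Krtap3-3 at position 1 to Krtap9-1 at position 17. The last 5, from Krtap31-1 to Krtap17-1, were not. Krtap16-1, listed at 0, is placed there by its current symbol, but RefSeq also gives that name as an older one of Krtap19-2 on chromosome 16, so its place and coding class are uncertain. On chromosome 16 the tested members were those at positions 2 to 5 of 22, namely Krtap26-1, Krtap27-1, Krtap13-1 and Krtap13. Krtap24-1 on the near side stood at 0, and Krtap14 on the far side had a mean of -0.02. Both are named for their place, after their values were seen. The 5 members on chromosome 7 and the 3 on chromosome 10 held no tested gene.

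**Figure D1:**
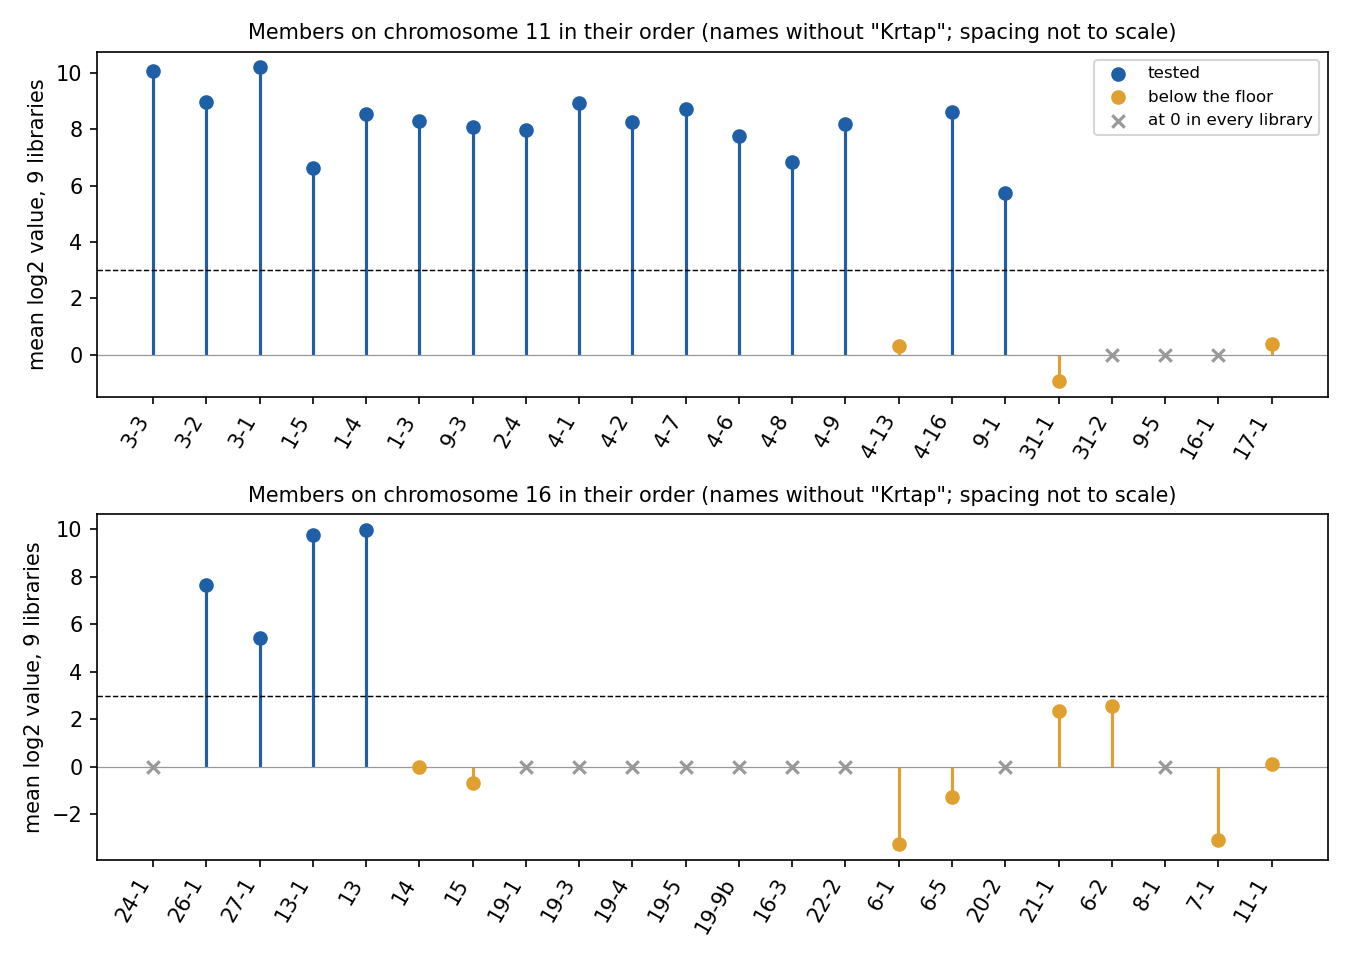
Mean deposited log2 value over the 9 libraries (vertical axis) of the 22 members on chromosome 11 and the 22 on chromosome 16, in gene order along the chromosome (horizontal axis, spacing not to scale). Blue stems are tested members, orange stems lie below the floor of 3 (dashed) and grey crosses stand at 0; the tested members form a run of 16 among the first 17 on chromosome 11 and a run of 4 on chromosome 16.

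The tested members were of the sulfur classes, and no high glycine-tyrosine gene was among them. From the coding sequences in GENCODE M21, 15 members had at least 35% glycine and tyrosine codons together, and of these 0 were tested, 6 lay below the floor and 9 stood at 0. Krtap5-2 and Krtap5-3 fell into that class at 36.0% and 39.3%, although their cysteine codons also reached 34.6% and 35.1%. Of the 17 remaining members with more than 30% cysteine codons, the ultra-high sulfur class, 9 were tested. Of the 20 high sulfur members, with at most 30% cysteine codons, 11 were tested. Among tested members the cysteine share ran from 8.4% in Krtap27-1 to 38.9% in Krtap4-9.

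**Figure D2:**
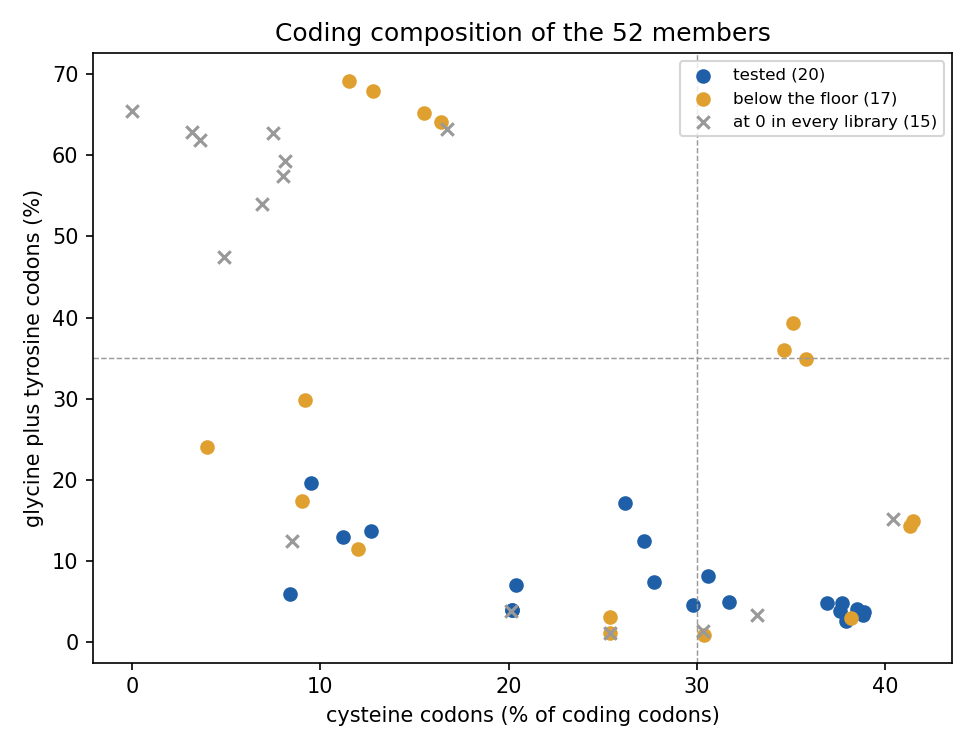
Share of cysteine codons (horizontal axis, % of coding codons) against the share of glycine plus tyrosine codons (vertical axis, %) of the 52 members, with dashed lines at 30% and 35%. The 20 tested members (blue) all lie at or under 19.6% glycine plus tyrosine.

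Since the tested members lay side by side with members that were not tested and were all lower in the transgene libraries, the bases just before their starts are shown for 5 tested members and for 2 neighbours that were not tested on chromosome 16. RefSeq promoter sequences of GRCm38.p6 matched 47 of the 52 members, and each line gives the 120 bases before the annotated start, 5′ to 3′ on the gene's strand, with the letters TATAAA in capitals. For 38 of the 47, bases just after that start were found in the GENCODE M21 transcript used for the coding sequence. The starts of the others rest on RefSeq alone, and counts at a fixed distance from the start depend on them.

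Krtap3-1, chr11:99566631-99566750, minus strand: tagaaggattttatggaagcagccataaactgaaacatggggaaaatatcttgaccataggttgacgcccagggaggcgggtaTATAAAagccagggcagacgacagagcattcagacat
Krtap4-1, chr11:99628240-99628359, minus strand: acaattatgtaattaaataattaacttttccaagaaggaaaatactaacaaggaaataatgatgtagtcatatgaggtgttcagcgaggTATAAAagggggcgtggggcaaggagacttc
Krtap9-3, chr11:99598107-99598226, minus strand: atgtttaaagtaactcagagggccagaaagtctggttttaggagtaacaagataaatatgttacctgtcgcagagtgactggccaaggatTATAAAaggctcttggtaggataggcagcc
Krtap26-1, chr16:88647797-88647916, minus strand: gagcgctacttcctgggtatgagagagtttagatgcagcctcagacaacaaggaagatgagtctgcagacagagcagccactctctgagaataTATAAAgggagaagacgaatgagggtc
Krtap13, chr16:88751629-88751748, minus strand: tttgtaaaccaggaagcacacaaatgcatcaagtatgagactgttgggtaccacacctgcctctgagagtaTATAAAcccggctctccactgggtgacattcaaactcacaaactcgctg
Krtap24-1, at 0 in every library, chr16:88612280-88612399, minus strand: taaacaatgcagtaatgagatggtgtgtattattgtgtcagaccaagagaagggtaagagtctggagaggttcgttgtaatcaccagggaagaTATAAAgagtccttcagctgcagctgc
Krtap14, below the floor, chr16:88826146-88826265, minus strand: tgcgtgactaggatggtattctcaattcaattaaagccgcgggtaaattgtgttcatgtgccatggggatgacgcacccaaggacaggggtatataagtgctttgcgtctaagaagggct

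TATAAA is a spelling of the TATA box, which places the start of transcription in many tissue-specific genes. It was frequent among members whether or not they were tested. Other spellings were not searched, and Krtap14, shown without capitals, holds tatataag. The counts of tested and other members therefore concern this spelling only. On either strand of the 250 bases before the start it was found in 16 of 18 tested members (88.9%) and in 22 of 29 others (75.9%), against 3504 of 27025 promoters in the same table. On the gene's own strand, 40 to 16 bases before the start, it was found in 12 of 18 tested members and 16 of 29 others, against 2.22% of all promoters. Spellings reported for HOXC13, a homeobox factor of the hair shaft, were TTAATNAA, TTAATNAG, TTAATNGA, TTAATNGG, TTTATNAA, TTTATNAG, TTTATNGA and TTTATNGG, searched on both strands. At least 1 match that did not overlap a TATAAA was found in 66.7% of tested members, 37.9% of the others and 4049 of the 27025 promoters. The LEF/TCF spellings CTTTGAA and CTTTGAT, on both strands, were found in 3 of 18 tested members, 7 of 29 others and 7.67% of all promoters. These are matches of letters, not sites, and the base composition of the promoters was not matched.

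Krtap RNA was lower in the transgene tongues for every tested member. The median difference, transgene minus control, was -1.09 on the log2 scale over the 20 tested members, 47.0% of the control level, and 0.00 over all 14490 tested genes. The fit with stratum terms in limma called 7 of the 20 lower and 0 higher, and all 20 had an unadjusted p under 0.05 with a negative difference, as did 11.8% of tested genes. Over all tested genes 1.15% were called lower and 0.511% higher. The 7 were Krtap3-1, Krtap3-3, Krtap4-7, Krtap9-3, Krtap13, Krtap13-1 and Krtap27-1, with adjusted p-values from 0.0221 to 0.0486, and the other 13 had adjusted p-values from 0.0518 to 0.0882. With the group as the only term all 20 were called lower, against 12.7% of tested genes, but that fit counts 7 residual degrees of freedom where the values hold 5. For all 20 members every transgene library lay below every control, which held for 11.6% of tested genes. In RNA of whole tissue, fewer cells that express these genes and less RNA per cell cannot be told apart.

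**Figure D3:**
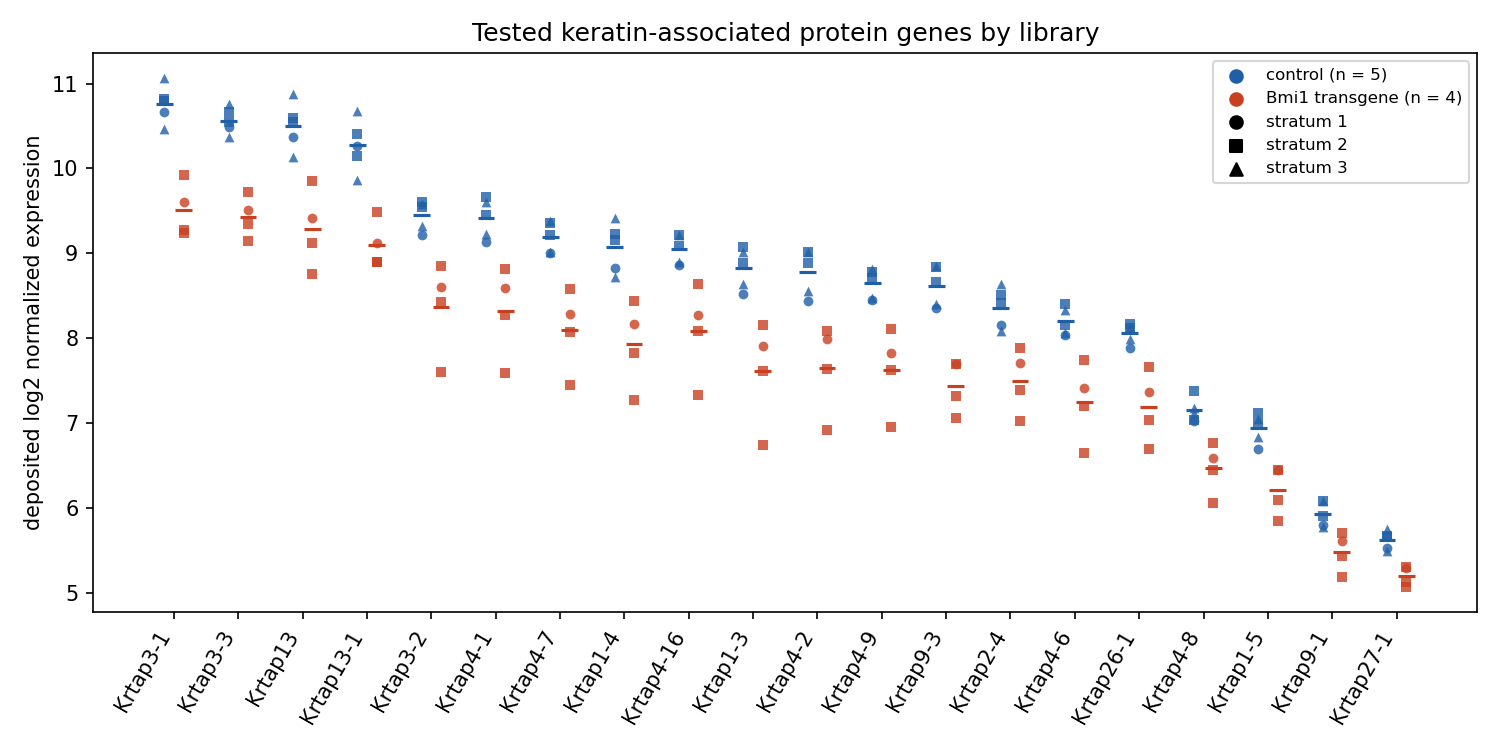
Deposited log2 normalized expression (vertical axis) of the 20 tested members (horizontal axis, ordered by control mean), with 1 point per library, 5 control libraries in blue and 4 transgene libraries in red. Point shape gives the stratum and short lines are group means; in each gene all red points lie below all blue points.

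Subfamily 3, whose members are among the smallest proteins of the high sulfur class at 98 or 99 codons, held the members with the 2 highest levels per kilobase, Krtap3-1 and Krtap3-3. Krtap3-1 stood at 10.67, 10.82, 10.79, 11.06 and 10.46 in control replicates 1 to 5 and at 9.60, 9.28, 9.24 and 9.92 in transgene replicates 1 to 4. The gap between the lowest control and the highest transgene library was 0.53, wider than the control SD of 0.22. Its difference of -1.25 (SE 0.18, limma adjusted p 0.0407) left 42.1% of the control level. Krtap3-3 fell by 1.13 (SE 0.13, limma adjusted p 0.0221), from a control mean of 10.56 ± 0.15 (SD, n = 5) to 9.43 ± 0.25 (SD, n = 4). Krtap3-2 differed by -1.08 and did not pass (SE 0.25, limma adjusted p 0.0594), with transgene values between 7.60 in replicate 3 and 8.85 in replicate 4. Krtap3-2 and Krtap3-3 share sequence, as described below, so their values are not independent.

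Subfamily 13, on chromosome 16, held the next pair by level per kilobase. Krtap13 stood at 10.37, 10.59, 10.55, 10.88 and 10.13 in control replicates 1 to 5 and at 9.42, 9.12, 8.76 and 9.85 in transgene replicates 1 to 4. The highest transgene library lay 0.28 below the lowest control, a gap equal to the control SD of 0.28. It fell by 1.21 (SE 0.24, limma adjusted p 0.0455), to 43.1% of control. Krtap13-1 fell by 1.17 (SE 0.20, limma adjusted p 0.0417), and its transgene SD of 0.28 was no larger than its control SD of 0.30. It was the only tested member with that order of the SDs, since in 19 of 20 the transgene SD was larger, as it was in 71.4% of tested genes.

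Taken per kilobase of annotated transcript, control means on the log2 scale were 11.49 for Krtap3-1, 11.01 for Krtap3-3, 10.69 for Krtap13-1 and 10.67 for Krtap13, and the last pair did not differ beyond its spread. All other tested members lay at or below 9.83, the value of Krtap1-4. The lowest was Krtap9-1 at 5.87.

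Subfamily 4, the largest group, encodes ultra-high sulfur proteins with 31.7% to 38.9% cysteine codons among its tested members. The 7 tested members differed by -0.68 for Krtap4-8 to -1.12 for Krtap4-2, with a median of -1.01. Krtap4-1, with the highest deposited value of the group, stood at 9.13, 9.66, 9.45, 9.60 and 9.23 in control replicates 1 to 5 and at 8.59, 8.27, 7.59 and 8.81 in transgene replicates 1 to 4. Transgene replicate 3 was the lowest, apart from the other 3, and the groups did not overlap. The difference of -1.10 (SE 0.26) did not pass in limma (adjusted p 0.0613). Krtap4-7 was the 1 member called, at -1.10 (SE 0.23, limma adjusted p 0.0486), and the adjusted p-values of the other 6 ran from 0.0559 for Krtap4-8 to 0.0746 for Krtap4-16.

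The tested members of subfamilies 1, 2 and 9 lie between subfamilies 3 and 4 on chromosome 11, apart from Krtap9-1 at the far end of the run. Krtap1-4 stood at 8.83, 9.23, 9.16, 9.42 and 8.72 in control replicates 1 to 5 and at 8.17, 7.83, 7.27 and 8.44 in transgene replicates 1 to 4, a difference of -1.15 (SE 0.26, limma adjusted p 0.0581). Krtap1-3 differed by -1.22 (SE 0.29, limma adjusted p 0.0651), and its transgene SD of 0.62 was the largest of the 20 members. Krtap1-5, at a lower level, differed by -0.73. Neither these members nor Krtap2-4, at -0.86 (SE 0.20, limma adjusted p 0.0622), passed.

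Krtap2-4 stood at 8.16, 8.51, 8.42, 8.64 and 8.09 in control replicates 1 to 5 and at 7.71, 7.39, 7.03 and 7.89 in transgene replicates 1 to 4. Krtap9-3 stood at 8.36, 8.84, 8.66, 8.85 and 8.40 in the controls and at 7.70, 7.32, 7.06 and 7.69 in the transgene libraries. It was called, at -1.18 (SE 0.18, limma adjusted p 0.0407), and its gap of 0.66 between the groups was the widest of the 20 members, just above the 0.65 of Krtap3-3. Krtap9-1, of the same subfamily, differed by -0.45 (SE 0.13, limma adjusted p 0.0882), the highest adjusted p of the 20, and its groups were 0.08 apart. Their numbers join them in name more than in composition, since cysteine codons were 27.2% in Krtap9-3 and 37.6% in Krtap9-1.

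Subfamilies 26 and 27 have 1 member each in the table. Krtap26-1 stood at 7.89, 8.12, 8.17, 8.13 and 7.99 in control replicates 1 to 5 and at 7.36, 7.04, 6.69 and 7.66 in transgene replicates 1 to 4, a difference of -0.87 (SE 0.19, limma adjusted p 0.0565). Krtap27-1 stood at 5.53, 5.67, 5.66, 5.75 and 5.49 in the controls and at 5.29, 5.07, 5.13 and 5.31 in the transgene libraries. It had the smallest difference of the 20 tested members, -0.42, and was called (SE 0.08, limma adjusted p 0.042). Its libraries also differed least within groups, with SDs of 0.11 and 0.12.

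The size of the difference followed the level. The 4 members that differed by less than 0.8, namely Krtap1-5, Krtap4-8, Krtap9-1 and Krtap27-1, had means of at most 6.85, and the 12 that differed by more than 1 had means of at least 8.10. Over the 20 members the rank correlation of mean level and difference was -0.79, and over all 14490 tested genes it was -0.06. The members share libraries and in part sequence, so this is a description. The deposited values vary little at low levels, as after a regularized log, and the part of that step in the smaller differences was not tested.

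**Figure D4:**
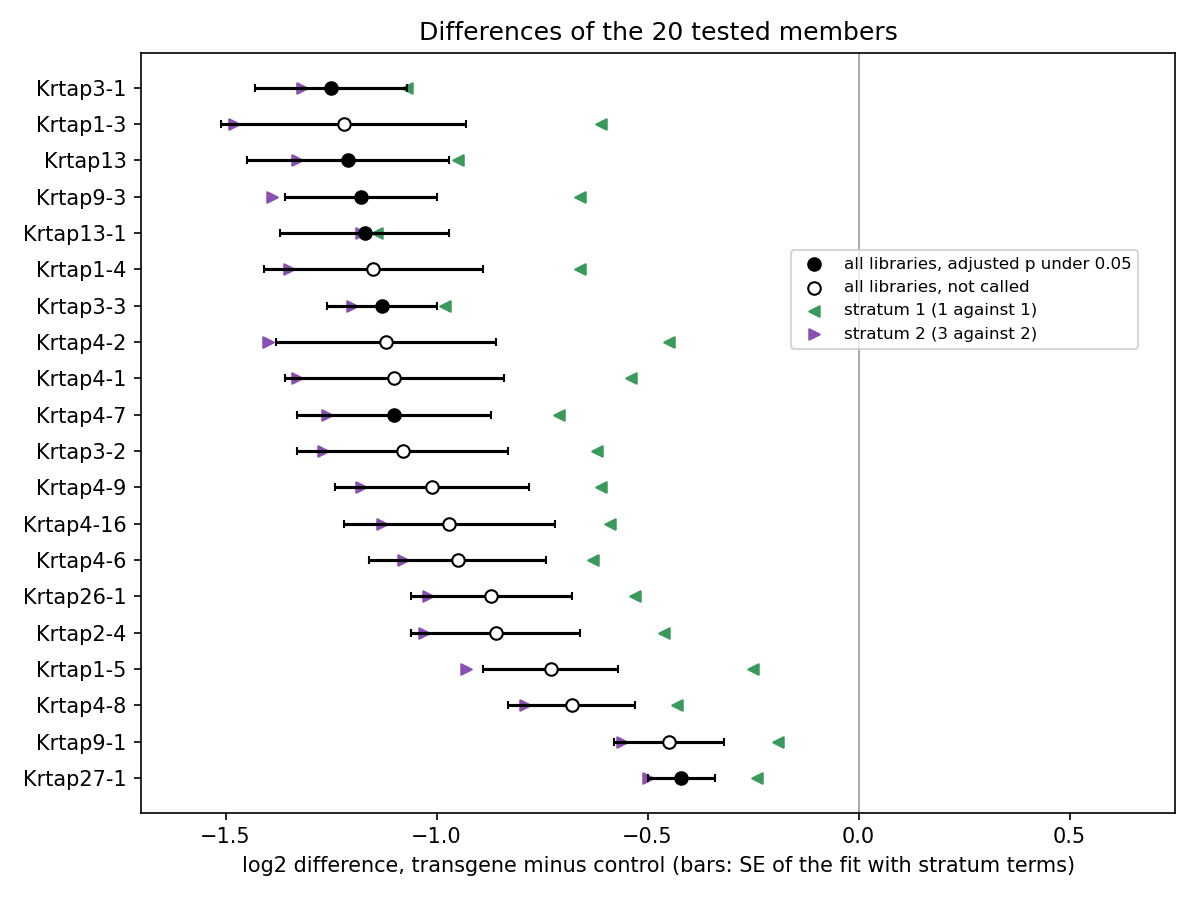
Log2 difference, transgene minus control (horizontal axis), of the 20 tested members, with bars for the SE of the fit with stratum terms, filled circles for the 7 called and open circles for the 13 not called. Green triangles give stratum 1 and purple triangles stratum 2, which are not separate comparisons. All triangles lie below 0, and the stratum 1 value is nearer to 0 in each member.

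Within the strata that hold both groups, all 20 members were lower in each, as were 25.9% of tested genes. Stratum 1, a single library of each group, gave a median difference of -0.61, and stratum 2 gave -1.19. All 20 members differed less in stratum 1 than in stratum 2, by unequal amounts. Because deviations add up to 0 within strata, the strata are not separate comparisons. This order only restates that control replicate 1 lay below the control mean in each member. Krtap13-1 differed by -1.14 and -1.18, Krtap3-3 by -0.98 and -1.20, and Krtap3-1 by -1.07 and -1.32. Krtap4-1 differed by -0.54 and -1.33, and Krtap1-5 by -0.25 and -0.93. The exact permutation test of each member gave p = 0.00794, two-sided, the smallest that 5 against 4 libraries allow, and 0.0523 after adjustment over 17448 genes. That smallest p was reached by 15.2% of those genes. Permuted within strata, the exact two-sided test gave p = 0.05 for every tested member, the smallest it allows. That value was reached by 24.7% of all genes and by 6 of the 17 members below the floor, so it does not set the tested members apart. The deviations add up to 0 around the actual group means, so relabelled libraries do not stand on equal terms with the actual ones. Both permutation p-values are therefore descriptive.

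The libraries kept much the same order from member to member. Transgene replicate 3 was the lowest of its group in 18 of 20 members and replicate 4 the highest in 18. As the median over members of the value minus the gene's control mean, replicates 1 to 4 stood at -0.82, -1.07, -1.55 and -0.61. Replicate 3 also had the highest Bmi1 value and replicate 4 the lowest, while replicates 1 and 2 stood in the opposite order, and the relation over 4 libraries was not tested. Among controls, replicate 1 was lowest in 12 members and replicate 5 in 8, with medians of -0.19 each. Krtap27-1 departed from the order, with transgene replicate 2 at 5.07 and replicate 3 at 5.13, and in Krtap13-1 both stood at 8.90. In Krtap9-3 transgene replicate 1, at 7.70, lay just above replicate 4, at 7.69, and in Krtap1-5 both stood at 6.45.

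**Figure D5:**
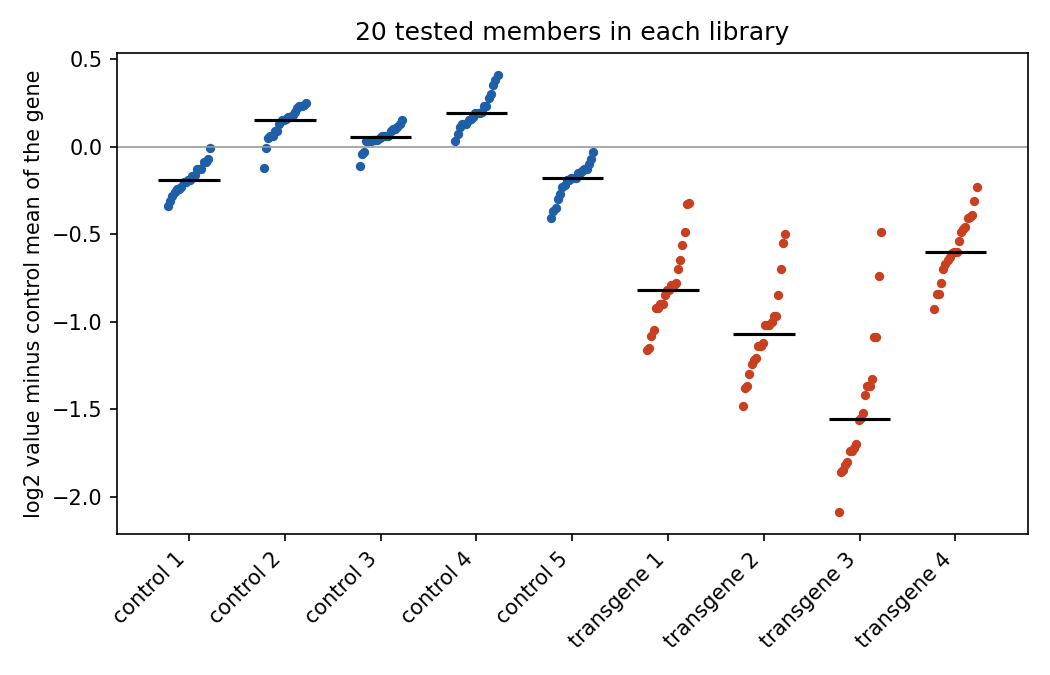
Log2 value minus the gene's control mean (vertical axis) of the 20 tested members in each library (horizontal axis), sorted within a library, with the median as a black line. Medians lie between -0.19 and 0.19 in the 5 controls and between -1.55 and -0.61 in the 4 transgene libraries.

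Which members were called depended on single libraries, although no direction did. Without control replicate 1 or transgene replicate 1 limma called all 20 lower, where it called 6.57% and 6.54% of all tested genes lower, and without transgene replicate 4 it called 18, against 1.22%. It called 4 without transgene replicate 3, against 0.152% of genes, with a median difference of -0.84. It called 3 without control replicate 4 or 5, against 0.0621% each. Without control replicate 2, control replicate 3 or transgene replicate 2 it called 0, with all 20 still at an unadjusted p under 0.05; over all genes limma then called 1, 0 and 0 lower. Krtap3-1 and Krtap3-3 were called in 6 of the 9 fits that left out a library, more often than any other member. Leaving out either library of stratum 1 gave the same differences, as did leaving out either library of stratum 3. The 9 fits are therefore not 9 separate comparisons.

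Transcript length moved with the result. Tested members have a median annotated length of 936 bases, against 3399 for the 13729 tested genes with a length. With the trend over length taken out, the median difference was -0.93 and limma called 1 member, Krtap3-3 at -0.94 (adjusted p 0.0331), where 0.0656% of genes were called lower. The other 6 were then not called, with Krtap3-1 at -1.03 (limma adjusted p 0.0532). Krtap27-1 went from -0.42 to -0.21 (limma adjusted p 0.173).

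Reads of 50 bases cannot always be placed within this family. Of the 20 tested members, 4 share no stretch of 50 bases with an annotated transcript of another gene, namely Krtap4-16, Krtap13-1, Krtap26-1 and Krtap27-1. Their differences were -0.97, -1.17, -0.87 and -0.42, with a median of -0.92, and 2 of them were called. In Krtap3-3 41.3% of all such stretches are shared, mostly with Krtap3-2, and in Krtap2-4 43.8% are shared with genes outside the rule. In Krtap3-1 the share is 8.8%, in Krtap13 24.9% and in Krtap9-1 36.6%. No source used here says how the authors' counting treated reads that match several genes, so values of such members are uncertain one by one.

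The authors' deposited table of their own comparison lists 981 genes, 5 of them members, and 3.81% of the tested genes as lower. For Krtap3-3 the authors' deposited table gives a log2 fold change of -1.13, the same as the difference of the deposited group means. For Krtap13 the authors' deposited table gives -0.47 where the deposited group means differ by -1.21, and for Krtap9-3 it gives -0.70 against -1.18. For Krtap3-2 and Krtap4-7 the authors' deposited table gives -0.40 each, against -1.08 and -1.10. Krtap3-1 is not in the authors' deposited table, although its group means differ most.

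Members below the floor showed almost no variation to compare. Their means ran from -3.26 to 2.58, and no member ranged over more than 0.182 between its lowest and highest library. Krtap6-2 lay between 2.57 and 2.64 in controls and between 2.52 and 2.59 in transgene libraries, so its groups overlap; it is named as the member nearest the floor. In 0 of the 17 members did all transgene libraries lie below all controls, which held for 3.38% of genes below the floor. By the exact permutation test 5 of the 17 had an unadjusted p under 0.05, all 5 lower by between -0.07 and -0.01, as against 19.3% of genes below the floor in either direction. None passed adjustment over 17448 genes, and permuted within strata all 5 had an exact p of 0.1. The limit on relabelled libraries given above holds for these tests as well.

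The hard keratins that these proteins bind were called lower in part. Of 8 tested type I hard keratin genes limma called 5 lower, and all 8 were lower at an unadjusted p under 0.05. Their median was -0.86, and Krt36, the one with the highest level, fell by 0.86 (SE 0.18, limma adjusted p 0.0475). Krt40 stood at 0. Of 5 tested type II genes limma called 2 lower, and all 5 were lower at an unadjusted p under 0.05. Their median was -1.01, and Krt85 fell by 1.08 (SE 0.17, limma adjusted p 0.0407). Over all tested genes limma called 1.15% lower, and 11.8% were lower at an unadjusted p under 0.05. Krt84, the type II gene with the highest level, differed by -0.78 (limma adjusted p 0.0694). Among 11 regulators of hair-shaft genes limma with stratum terms called 0, with 5 lower at an unadjusted p under 0.05 and a median of -0.13. Nfic, the one with the highest level, differed by 0.01. Hoxc13 differed by -0.52 (limma adjusted p 0.0709); it is named, after its values were seen, because its spellings were searched in the promoters. These lists were chosen with results of the data known.

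Markers of other cells of the tissue were read beside the family. Of 12 genes of the inner root sheath and fur follicle in the table, 2 stood at 0, 6 lay below the floor and limma called 0 of 4 tested, with 2 at an unadjusted p under 0.05. Among the keratins that define the inner root sheath, named for that reason, Krt71 and Krt26 stood at 0, Krt25 and Krt27 lay at or below 0.77, and Krt73 lay between 2.79 and 2.85. The log2 summed level of that list, carried by Tchh, lay between 13.92 and 14.19 in controls and between 13.70 and 14.39 in transgene libraries. Its 4 tested genes had a median difference of -0.25, from -0.06 for Tchh to -0.58 for Crisp1 (limma adjusted p 0.0565), and their part in the Krtap result was not tested. The summed level of 14 oral suprabasal genes lay between 19.85 and 20.25 and between 19.76 and 20.19, with 1 called lower, Krtdap at -0.36 (limma adjusted p 0.0418). In limma 3 of the 14 were lower at an unadjusted p under 0.05. The summed level of 8 basal keratinocyte genes lay between 17.00 and 17.23 and between 16.91 and 17.10, and that of 6 fibroblast genes between 16.21 and 16.60 and between 16.58 and 16.89. The 8 muscle genes had a median difference of -0.04. Limma called 0 genes of the basal, fibroblast and muscle lists, with 1, 4 and 1 at an unadjusted p under 0.05. Of these the basal and fibroblast genes were higher and the muscle gene lower. Among endothelial, immune, minor salivary, pigment and taste genes limma also called 0, with 2 of 5, 2 of 4, 1 of 4, 1 of 4 and 0 of 4 at an unadjusted p under 0.05, all higher. Over all tested genes 11.8% were lower at that threshold, and no share was counted for genes that were higher. The fibroblast list had a median difference of 0.32, and the part of tissue make-up in the Krtap result was not tested.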

How the data were processed

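Per the labels' protocols, stranded mRNA libraries of tongue RNA were read from 1 end over 50 bases. Per the submitters' processing notes, TopHat2, HTSeq and DESeq2 were used with build mm9, versions not given. The authors deposited log2 normalized expression per gene and a signed fold score between group means. Their comparison table holds, per the file headers, a mean normalized signal, log2 fold change, linear ratio, test score and p-value. No counts were analysed, so depth is unknown.

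A search of 3003 partitions found the 3 strata. limma 3.58.1 in R 4.3.3 was fitted with group and stratum terms, an intensity trend and Benjamini-Hochberg adjustment, and tested on simulated data. Stratum 1 carries 29.4% of the weight of the difference, stratum 2 70.6% and stratum 3 none. 3064 genes at 0 in every library and 1 row without a symbol were left out. All members at or above the floor could be named, with values per library for the highest-level member of each tested subfamily; list genes were named where called or as the highest of their list, and exceptions are marked. Coding composition came from GENCODE M21 transcripts, in place of the protein table planned. Alternatives were the group-only fit, other floors and priors, median centring, removal of the length trend and leaving out each library. Members, lists and tests were chosen with earlier results of these data known.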

Additional observations from a re-analysis of the deposited data

How the results depend on the processing

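None of the 360 values of single members under alternatives changed sign, but many of them could not have done so. The group-only fit, other floors and other priors alter the test and leave each difference as it was. The same holds for leaving out either library of the stratum with controls only. Leaving out either library of stratum 1 repeats the differences of the other stratum that holds both groups. The 360 values are therefore not separate checks of direction. The count of members called lower, 7 in the fit with stratum terms, was 20 with the group as the only term (12.7% of all genes called lower), 5 with no floor (0.659%), 7 with a floor of 5 (1.3%), 5 without the intensity trend (1.19%), 4 with a robust prior (1.06%), 7 with libraries centred on their median (1.1%) and 1 with the length trend taken out (0.0656%). Leaving out 1 library in turn gave counts from 0 to 20 and medians from -1.24 to -0.84. The median difference, -1.09, was -0.45 with no floor, where 37 members enter, and -0.61 in stratum 1 alone. Over the 4 members that share no 50-base stretch, a setting added after seeing the data, it was -0.92. The cause of these changes was not tested, apart from the added low members under no floor. No paired analysis was possible because the labels give no replicate numbers; those used follow accession order. The unknown depth limits what can be said of members at 0.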

Other observations

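Sequence shared with tested members also led to 17 annotated genes outside the naming rule, all with provisional Gm or Rik symbols. Of these, 15 are in the table and 13 were tested. All 13 were lower in transgene libraries, by -0.51 for 2300003K06Rik to -1.14 for 2310034C09Rik and 2310057N15Rik. Limma with stratum terms called 3 of them lower, where it called 1.15% of all tested genes lower. The 3 were Gm11562 (-0.99, adjusted p 0.0418), Gm11937 (-0.58, adjusted p 0.0363) and Gm11938 (-1.03, adjusted p 0.0455), each of which shares 50-base stretches with Krtap2-4. 2310034C09Rik had a mean log2 value of 10.34, above that of any gene under the naming rule. The counts and gene order given above for members leave these 17 genes out. Whether they belong to the family was not examined. These genes were chosen after the sharing was seen, and reads common to them and to members were not separated.

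Krtap5-2, Krtap5-3 and Krtap7-1 hold identical deposited values in all 9 libraries, near -3.09, and 31 genes of the table share that exact set of values. Below the floor such values tell these genes apart no further.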
